A study of Mus musculus with 6 samples.

Results

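Small RNA of testes lacking Miwi2 was compared with that of wild-type testes at 10 days post partum (dpp). The comparison uses 2 of the 6 libraries of the series, those titled Miwi2 WT 10dpp and Miwi2 KO 10dpp, with 82228839 of its 238603486 reads. Each library is 1 pool of whole testes of 3 mice on the strain background C57BL/6, one of Miwi2 knockout (KO) animals at post-natal day 10 and one of their wild-type (WT) littermates of the same age. Neither the allele that removes Miwi2 nor the cells in which it is removed is stated by the labels. A further library, the WT of the Dnmt3L line at 10 dpp, also 1 pool of 3 C57BL/6 mice, serves to show how far apart wild-type pools of this age lay. Its file holds reads of up to 100 nt and the Miwi2 files reads of up to 50 nt, so the libraries also differ in read length, and what this adds to the distance was not tested. No group has a second library, so no test was run and no p is given. A difference seen here may come from the genotype, from the animals pooled or from the library, and these cannot be told apart.

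Miwi2, whose gene symbol is Piwil4, encodes a PIWI protein. PIWI proteins bind PIWI-interacting RNAs (piRNAs), which are slightly longer than microRNAs (miRNAs), mostly start with U, and guide the silencing of transposons in germ cells. In mice MIWI2 is known to act in the nucleus of male germ cells around birth, where its piRNAs direct DNA methylation to young transposons such as L1 and IAP, and germ cells without it stop in early meiosis. Another PIWI protein, MILI (gene Piwil2), is made before and after birth, cuts transposon RNA and starts the ping-pong cycle, in which the partner of a piRNA begins 10 nt inside it on the other strand and therefore often has A at position 10. In the testis after birth, many piRNAs also come from 3′ untranslated regions (3′ UTRs) of messenger RNAs.

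The WT library holds 45010155 reads and the KO library 37218684, and 85.3% and 86.4% of them have 18 to 35 nt. Levels are given as RPM, the reads of a feature scaled to 1000000 reads of its library. A count of 3 reads, used as the floor, is 0.0667 RPM in the WT and 0.0806 in the KO. Intervals are 95% exact intervals, Clopper-Pearson for shares and conditional binomial for ratios. They cover counting error only, because PCR copies of a molecule cannot be recognised here. A feature is called higher or lower where its log2 ratio of KO to WT is larger than 95% of the log2 ratios between the Miwi2 WT and the Dnmt3L WT. That limit shares the Miwi2 WT library with the comparison itself. Sense reads of Piwil4 (GRCm38 chromosome 9, 14696230 to 14740733) numbered 2 in the WT, 2 in the KO and 8 in the Dnmt3L WT. So few fragments, which may lie outside what the allele removes, do not check the label.

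The reads of piRNA size (24 to 32 nt) on which the transcript results turn, and the miRNAs on which the miRNA results turn, are printed here. Reads are labelled by the genes they matched, which need not be their source, and the Tmem38b read is given for contrast. In the reads, capitals mark a first base U (written T) and an A at position 10, the bases typical of piRNAs and of their ping-pong partners.
Noct and Gm9864: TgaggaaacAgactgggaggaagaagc
Noct and 4 further genes: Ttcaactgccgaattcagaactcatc
Gm42860, Noct and 3 further genes: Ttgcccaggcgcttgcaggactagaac
Read found in many genes, 28 nt: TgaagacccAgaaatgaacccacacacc
The same read with 1 more base at its start: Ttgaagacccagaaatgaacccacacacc
Read found in many genes, 29 nt: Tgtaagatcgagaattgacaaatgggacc
Gm21962 and 6 further genes: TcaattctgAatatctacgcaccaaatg
Nrros: Tacccacgcctggagaacctcagcct
Ky: Tgccaagtggaacctatctgaagacct
Tmem38b: gggaataccgggtgctgtaggctt
In the mature miRNAs, from RefSeq on GRCm38.p6, capitals mark the seed, bases 2 to 8, by which a miRNA recognises its targets.
miR-449a-5p: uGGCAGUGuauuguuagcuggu
miR-449c-5p: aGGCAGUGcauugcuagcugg
miR-463-5p: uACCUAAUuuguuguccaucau
miR-201-5p: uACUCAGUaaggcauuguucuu
miR-878-5p: uAUCUAGUuggaugucaagaca
miR-470-5p: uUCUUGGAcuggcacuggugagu
miR-871-3p: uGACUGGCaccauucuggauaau
miR-181a-5p: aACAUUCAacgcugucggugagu
miR-127-3p: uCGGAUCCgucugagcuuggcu
miR-449a-5p and miR-449c-5p share the seed GGCAGUG, and the other miRNAs printed each have a seed of their own.

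Over the whole size range the libraries were close to each other, and they parted within the piRNA range. Reads of 20 to 23 nt, the size of miRNAs, made up 57.4% of the WT reads of 18 to 35 nt and 55.7% of those of the KO. Reads of 24 to 32 nt made up 32.9% (95% interval 32.855 to 32.885) of the WT and 32.6% (32.590 to 32.623) of the KO. The Dnmt3L WT had 75.2% and 21.4%, respectively, farther from either Miwi2 library than these were from each other. Within the piRNA range the KO held fewer of the shorter reads and more of the longer ones. From WT to KO, the share of 26 to 27 nt went from 9.61% to 8.89%, that of 28 to 29 nt from 6.99% to 7.31%, and that of 30 to 32 nt from 4.75% to 5.59%. By single length, the ratio of KO to WT in RPM was 0.872 at 25 nt, 0.868 at 26 nt, 0.992 at 27 nt, 1.03 at 28 nt, 1.10 at 29 nt, 1.19 at 31 nt and 1.31 at 32 nt. The Dnmt3L WT had few long reads, with 0.477% at 30 to 32 nt, so that this part of the range differed more between the wild-type pools than between KO and WT. The ends of the fraction differed as well, with a ratio of 0.828 at 18 nt and of 1.56 at 34 nt. At 34 nt a single sequence that matched no transcript made up 53.7% of the WT and 54.9% of the KO reads, at 15729 and 25041 RPM.

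**Figure D1:**
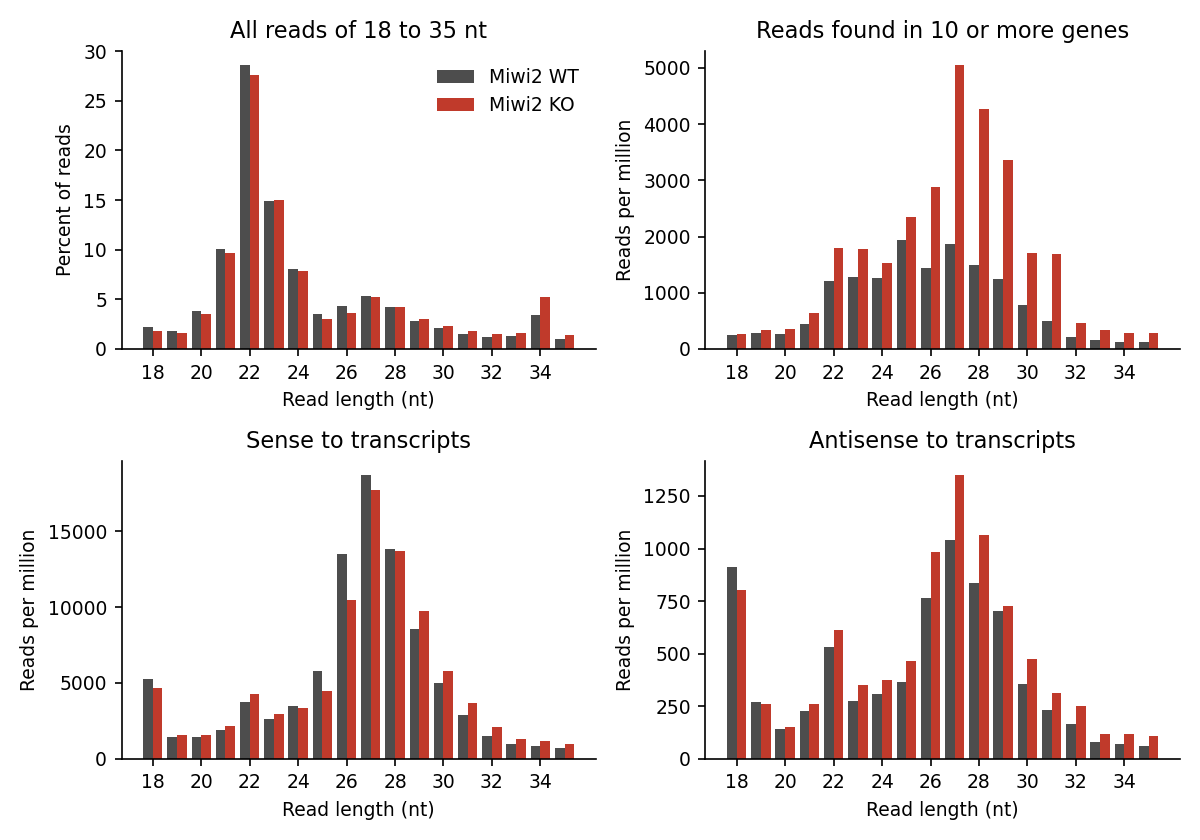
Reads by length in the Miwi2 WT and KO libraries: percent of all 18 to 35 nt reads (upper left), and RPM of reads found in 10 or more genes (upper right), sense to transcripts (lower left) and antisense to transcripts (lower right). Bars are single libraries without error bars. Reads found in 10 or more genes stand higher in the KO at each length, with the largest RPM differences at 27 to 29 nt. Sense reads are lower in the KO at 25 and 26 nt and higher at 29 to 32 nt.

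Most reads of piRNA size began with U in both libraries. WT and KO had 67.2% and 67.3%, and the Dnmt3L WT 77.7%. An A at position 10 was carried by 26.7% of WT, 28.6% of KO and 23.4% of Dnmt3L WT reads. When reads of miRNA genes and other small RNA were left out, these shares were 26.6% for the WT and 29.6% for the KO. Sense reads alone had an A there in 31.5% (WT) and 35.9% (KO), and a first-base U in 76.1% and 73.9%. The small difference in first-base U took the other sign without miRNAs and other small RNA, at 67.2% (WT) and 66.9% (KO), and over distinct sequences, at 62.3% and 59.5%. At 23 nt, 46.6% of WT and 58.1% of KO reads began with U. The most abundant read of that length was Mir181a, which begins with A, at 31892 RPM in the WT and 18869.6 in the KO. Mir470 and Mir871, which begin with U, were the next, at 6564 and 3999 RPM in the WT and 12364 and 8906 in the KO.

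Reads were matched without mismatches to the longest transcript of each of 55450 annotated genes, and the ratio of KO to WT depended on how many genes held a read. Reads found in 10 or more genes, called repeat-like below, had 10753 RPM in the WT, 23304 in the KO and 7243 in the Dnmt3L WT. The ratio of KO to WT was 2.17 (95% interval 2.16 to 2.17), and their share of piRNA-size reads was 3.84% in the WT and 8.27% in the KO. Reads sense to a transcript of 1 gene had 56581 RPM in the WT and 38502 in the KO, a ratio of 0.680 (0.679 to 0.682). The Dnmt3L WT had 32842 RPM of them, below the KO, so that the Miwi2 WT was the high library here. Sense reads found in 2 to 4 genes had 10836 and 12753 RPM, a ratio of 1.18. Sense reads found in more genes than that, short of repeat-like, had 5889 and 19813 RPM, a ratio of 3.36 (3.35 to 3.38). The 3 groups add up to sense totals of 73306 RPM in the WT and 71067 in the KO, whose ratio of 0.969 hides both directions.

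Among repeat-like reads the excess in the KO was in those found in 10 to 99 genes. Reads of 10 to 29 genes had 8337 RPM in the WT and 19975 in the KO, a ratio of 2.40. Those of 30 to 99 genes had 1522 and 2687 RPM, and those of 100 genes or more 895 and 642 RPM, a ratio of 0.718. Repeat-like reads with more sense than antisense places in transcripts had 6765 RPM in the WT and 17759 in the KO, a ratio of 2.63, against 1.44 for those with more antisense places. By length the repeat-like ratio was 1.21 at 24 and 25 nt, 1.99 at 26 nt, 2.72 at 27 nt, 2.85 at 28 nt and 2.68 at 29 nt. At 30, 31 and 32 nt it was 2.17, 3.38 and 2.24. The base composition of repeat-like reads differed little between the libraries, with a first-base U in 71.9% (WT) and 74.1% (KO) and an A at position 10 in 44.7% and 44.4%. Those of 100 genes or more had a first-base U in 22.9% (WT) and 20.8% (KO) and an A at position 10 in 73.7% and 77.2%. Which transposon family a read belongs to was not assigned here. Reads that matched no transcript were the largest class in both, with 144125 RPM in the WT and 134468 in the KO, and 21.4% and 20.8% of them began with the first 18 bases of a mature miRNA.

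Most of the reads printed above were higher in the KO. They were picked for many reads over both libraries, for extreme ratios or from named transcripts, so this follows partly from the choice. The most abundant read found in transcripts, a repeat-like read of 25 nt that is not printed, was nearly level. It had 57007 reads in the WT, 44788 in the KO and 58413 in the Dnmt3L WT, a ratio of KO to WT of 0.950 in RPM. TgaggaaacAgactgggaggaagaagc, found sense in Noct and Gm9864, had 5157 reads in the WT, 59430 in the KO and 1294 in the Dnmt3L WT, a ratio of 13.9 in RPM (95% interval 13.5 to 14.3). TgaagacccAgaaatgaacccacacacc, sense in 36 genes, had 5598 reads in the WT, 16660 in the KO and 359 in the Dnmt3L WT. With 1 more base at its start, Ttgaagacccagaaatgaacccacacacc had 2628, 18728 and 62 reads. Both stood higher in the KO, by 3.60 and 8.62 in RPM, so the ratio depended on where the read began. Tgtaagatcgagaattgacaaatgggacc had 2367 reads in the WT, 17300 in the KO and 97 in the Dnmt3L WT. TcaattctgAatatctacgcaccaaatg had 9 reads in the WT, 2456 in the KO and 25 in the Dnmt3L WT, a ratio of 330.02 (174 to 723). By contrast gggaataccgggtgctgtaggctt, which matched the 3′ UTR of Tmem38b, had 16886, 13474 and 30948 reads and a ratio of 0.965. Sense reads of Tmem38b mostly lacked the first-base U of piRNAs, with U at 10.5% (WT) and 11.3% (KO). This single read made up 69.3% of them in the WT and 64.1% in the KO. Whether it comes from Tmem38b or from another RNA was not tested. Of 2190 piRNA-size sequences outside miRNA genes and other small RNA with at least 500 reads over both libraries, 643 were higher and 151 lower in the KO by more than 2-fold. More than 16-fold higher were 277, of which 223 began with U and 130 had A at position 10, beside 1488 and 752 of all 2190.

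Sense reads of single transcripts were compared where both libraries together held at least 500, which left 1666 transcripts. The limit between the wild-type pools was a log2 ratio of 2.02, or 4.07-fold. Past it, 107 transcripts were higher in the KO, 6.42% of those tested, and 8 were lower, 0.48%. Past 2-fold, 172 were higher (10.3%) and 407 lower (24.4%). This balance depended on the scaling: with trimmed means of the transcripts (TMM) 189 were higher and 169 lower, and counted from the median of all transcripts 230 were higher and 47 lower. Between the wild-type pools, with the Miwi2 WT over the Dnmt3L WT, 42.3% of transcripts were higher and 0.272% lower by more than 2-fold. The median log2 ratio of KO to WT was -0.65, with quartiles of -0.99 and -0.15. TMM moved that median to -0.35, so ratios of single genes below are best read against it. In whole testis, fewer cells of a type and less RNA per cell cannot be told apart.

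Transcripts with nearly all reads in 1 gene and those with few such reads had medians on opposite sides of zero. Of 962 transcripts with at least 90% of their reads in 1 gene, 908 were below zero, with a median log2 ratio of -0.81, and 2 were called higher and 7 lower. Of 293 transcripts with under 10% of their reads in 1 gene, 84 were called higher and none lower, with a median of 0.29. Below zero were 110 of these. Under TMM the medians were -0.52 and 0.58, and 828 of the 962 were below zero. Set against the Dnmt3L WT, the KO had a median of 0.13 for the 962 and 2.06 for the 293. The 411 transcripts between, with 10 to 90% of their reads in 1 gene, had a median of KO to WT of -0.49. Of these, 298 were below zero, 21 were called higher and 1 lower. By annotation, 1346 protein-coding transcripts had a median of -0.75 and 320 others one of 0.31. Of the 107 transcripts called higher, 46 were pseudogenes, 24 were loci annotated as awaiting experimental support (TEC), 12 were long intergenic RNAs and 19 were protein coding. Among all 1666 tested, these kinds numbered 107, 84, 83 and 1346. Together the 107 held 1916 RPM in the WT and 18912 in the KO. They were chosen by this ratio in these same libraries, so this excess, and that of their groups below, follows from the choice. The minimum counts both libraries, and some, such as Nrros and Ky, passed it only through the KO. An A at position 10 was carried by 50.5% of the WT and 46.0% of the KO reads of the 107. The other tested transcripts had 31.2% and 32.9%.

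**Figure D2:**
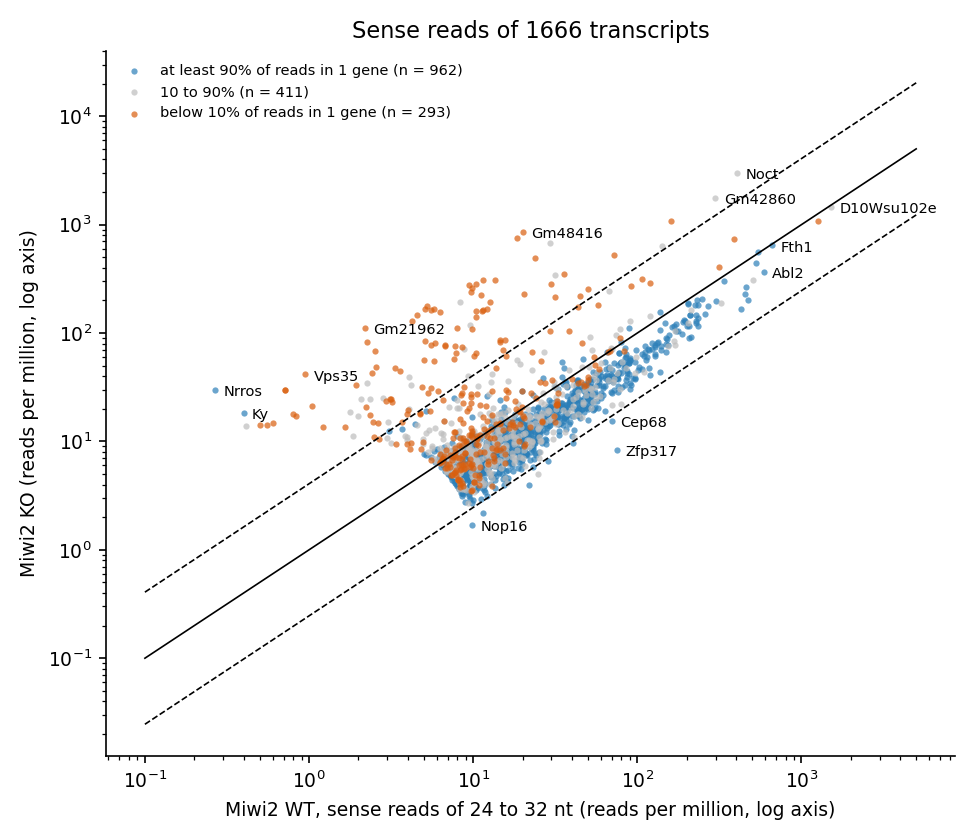
Sense reads of 24 to 32 nt of 1666 transcripts in the Miwi2 KO against the Miwi2 WT, in RPM on log axes, one point per transcript from single libraries. The solid line marks equal levels and dashed lines the 4.07-fold limit. Transcripts with under 10% of their reads in 1 gene make up most points above the upper dashed line, with Nrros and Ky as exceptions at the left, while those with at least 90% lie mainly below the solid line.

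The called transcripts are not independent, because the same reads count in many of them. When transcripts sharing at least 50% of their reads were joined, the 107 fell into 16 groups, 10 of them single transcripts. The group with the most members held 71 transcripts on 19 chromosomes, 44 of them pseudogenes and 12 protein coding. Its reads had 541 RPM in the WT, 9733 in the KO and 377 in the Dnmt3L WT, a ratio of KO to WT of 17.98 (95% interval 17.7 to 18.2). The number of distinct sequences behind it was 3640 in the WT and 9328 in the KO, and U at position 1 was at 62.5% and 75.1%. Members of this group are among the highest ratios of all, such as the pseudogene Gm48416 (chromosome 12, 63355784 to 63357904), at 19.99 RPM in the WT, 855 in the KO and 11.4 in the Dnmt3L WT. Gm37767 had 18.4, 754 and 8.32 RPM, and Gm21962 had 2.18, 112 and 1.77 RPM. Vps35, which encodes a part of the retromer that sorts membrane proteins, had 0.948 RPM in the WT and 41.6 in the KO, but 1.38% of its reads were its own. Zfp781, a zinc finger gene, and Gm3055 gave the same 0.714 and 29.9 RPM, as near copies that share their reads.

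Another group, of 14 transcripts, held Noct, the gene of a circadian phosphatase known as Nocturnin. Its reads had 1286 RPM in the WT, 8571 in the KO and 794 in the Dnmt3L WT, a ratio of 6.66 (95% interval 6.60 to 6.72). Noct itself (chromosome 3, 51224447 to 51251644) had 404 RPM in the WT, 3019 in the KO and 273 in the Dnmt3L WT, 7.47-fold. Its longest annotated transcript has 9797 nt with the coding part at 7608 to 8702, and 99.9% of its reads lay upstream of that part. Of those reads, 14.6% were of no other gene. These alone gave 49.5 RPM in the WT and 452 in the KO, 9.13-fold (8.73 to 9.54). Gm42860 had 299 and 1769.7 RPM (5.91-fold), and the pseudogene Gm9864 160 and 1081 RPM (6.76-fold), in which the read printed first made up 35.9% of the WT and 73.9% of the KO reads. A group of 6 transcripts, with Gm26818 and Gm48916, differed mainly in antisense reads, at 26.2 RPM in the WT and 541 in the KO, beside 25.3 and 155 RPM of sense reads. Of its sense reads, 58.9% (WT) and 82.2% (KO) had an A at position 10, and 36.4% and 12.9% a first-base U.

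Among the 962 transcripts with at least 90% of their reads in 1 gene, Nrros and Ky were the 2 called higher. Nrros (chromosome 16, 32142785 to 32165594) encodes a leucine-rich repeat protein that regulates reactive oxygen species and TGF-beta activation in myeloid cells. The WT had 12 reads of it and the KO 1110, at 0.267 and 29.8 RPM beside 0.256 in the Dnmt3L WT, 112-fold higher (95% interval 63.8 to 217). The KO reads came from 224 distinct sequences, against 7 in the WT, 99.3% of all reads lay in the coding part, and 87.5% of those in the KO began with U. They covered 22 of the 36 stretches of 100 nt along the transcript, from position 1312 to 3404, and no single sequence held more than 7.75% of the KO reads. Its most frequent read, printed above, was counted 0 times in the WT and 86 times in the KO, at least 34.7-fold higher.

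Ky (chromosome 9, 102505750 to 102546239), a gene of the muscle protein kyphoscoliosis peptidase, was read 18 times in the WT and 680 times in the KO. Its levels were 0.400 RPM in the WT, 18.3 in the KO and 0.315 in the Dnmt3L WT, 45.7-fold (95% interval 28.7 to 77.6). The KO reads were spread over 48 of 59 stretches of 100 nt, with 63.6% of all reads in the 3′ UTR. Distinct sequences numbered 7 in the WT and 192 in the KO. Antisense reads numbered 0 in both libraries for Ky, and 7 and 4 for Nrros.

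**Figure D3:**
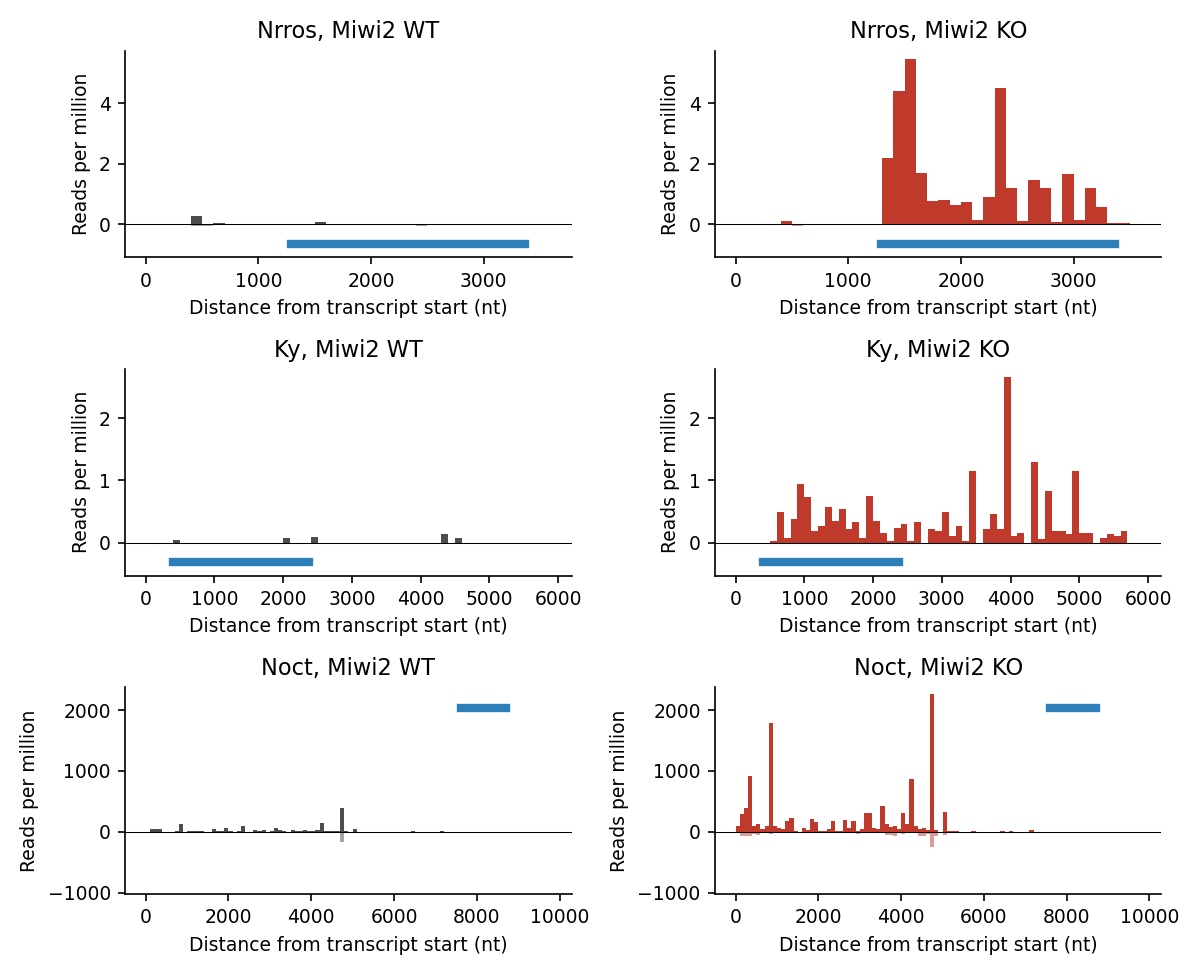
RPM of piRNA-size reads in stretches of 100 nt along the transcripts of Nrros, Ky and Noct, sense above and antisense below the line, in the Miwi2 WT (left) and KO (right), with the coding part as a blue bar. Scales are the same within a gene, and Noct includes reads it shares with other genes. The KO shows reads along the coding part of Nrros and most of Ky, while the reads of Noct lie upstream of its coding part in both libraries.

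The 8 transcripts called lower were all protein coding, as were 80.8% of all tested. Zfp317, a KRAB zinc finger gene, had 74.9 RPM in the WT, 8.41 in the KO and 20.5 in the Dnmt3L WT, a ratio of 0.112. Nop16, of ribosome assembly, had 9.84, 1.69 and 4.05 RPM (0.172), and Zyg11a, a substrate-recognition part of a ubiquitin ligase, 21.7, 3.98 and 14.9 RPM (0.183). Xkrx had 11.4 RPM in the WT and 2.18 in the KO, and Tapbp, the tapasin of antigen loading, 24.8 and 4.98. Cep68, of the centrosome linker, had 70.1 RPM in the WT, 15.4 in the KO and 12.8 in the Dnmt3L WT, and Pde4c, a cAMP phosphodiesterase, 28.4, 6.61 and 9.82. Plin3, of lipid droplets, was the member nearest the limit at a log2 ratio of -2.06, and B3gntl1 lay just outside at -1.99. On the higher side Gm42863 at 2.11 was just inside and Gm12480 at 2.02 just outside. For Nop16, Xkrx, Tapbp, Pde4c and Plin3 the KO was below the Dnmt3L WT as well, as it was for Zfp317 and Zyg11a, and for Cep68 it was slightly above.

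For Zfp317 much of the difference lay in 1 base. Its most abundant read had 891 reads in the WT, 2 in the KO and 56 in the Dnmt3L WT, and a read that differs from it by the substitution C2T, with positions counted from the 5′ end, had 4, 1031 and 1.
Zfp317 transcript: tCactttgtagaccaggctggccccgcc
Variant: tTactttgtagaccaggctggccccgcc
Capitals here mark the base that differs. Together these reads had 19.9 RPM in the WT and 27.8 in the KO, a ratio of 1.40. The form of 27 nt, which ends 1 base earlier, was read 643 times in the WT and 0 times in the KO, its C2T variant 1 and 450, and both together a ratio of 0.845. Within 30 nt of this read lay 78.6% of the WT reads of Zfp317. With each exact read counted in full in every gene it matches, the ratio of Zfp317 was 0.157, and 0.719 once unmatched reads with 1 mismatch were added. The other 7 transcripts called lower were then between 0.185 and 0.252. The reads of Zfp317 outside that window had a ratio of 0.327. Zfp317 (chromosome 9, 19622102 to 19649731) lies 4.88 Mb from Piwil4. Whether the pools differ in genome sequence here, beyond the strain label C57BL/6 that both carry, was not tested, and the call of Zfp317 rests on exact matching. Nrros and Ky, treated in the same way, went from 74.6-fold to 49.9-fold and from 45.7-fold to 41.3-fold.

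Several of the transcripts with the most reads were nearly level. D10Wsu102e, whose annotated transcript of 123179 nt runs far past its coding part, had 1521 RPM in the WT, 1451 in the KO and 1047 in the Dnmt3L WT. Fth1, of the iron store ferritin, had 664, 642 and 151 RPM, and Tmem38b, of an intracellular cation channel, 541, 565 and 1226. The Tmem38b reads mostly lacked a first-base U, and whether they come from Tmem38b was not tested. Gm42418, opposite an annotated ribosomal RNA, had 1266, 1088 and 2263 RPM, with a first-base U in 35.7% (WT) and 32.6% (KO) of its reads. D10Wsu102e, Fth1 and Gm42418 were below the WT by library scaling and above it under TMM and over distinct sequences, with ratios near 1 either way. Abl2, a tyrosine kinase gene read mostly in its 3′ UTR, had 589 RPM in the WT, 368 in the KO and 442 in the Dnmt3L WT, a ratio of 0.624. Gm38194 had 390, 744 and 189 RPM, a ratio of 1.91, with 0.531% of its reads its own. The antisense reads of D10Wsu102e, divided among genes as its sense reads are, had 112 RPM in the WT and 122 in the KO. With every shared and repeat-like read counted in full, its sense reads had 2715 and 3189 RPM and its antisense reads 2799 and 14094.

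Among transcripts with at least 90% of their reads in 1 gene, the next highest ratios below Nrros and Ky were those of Col3a1, Col1a2, the noncoding A230059L01Rik and Gm34788, and Col1a1, none of them called. They were picked after their values were seen, and no other collagen gene had the reads to be tested. Col3a1 had 3.07 RPM in the WT, 12.4 in the KO and 1.23 in the Dnmt3L WT, a ratio of 4.04 that lies just short of the limit. Col1a2 had 5.18, 19.1 and 1.26 RPM (3.70), and Col1a1 had 7.60, 25.04 and 1.60 (3.30). These genes encode chains of fibrillar collagens made by mesenchymal cells. A230059L01Rik had 3.69, 13.0 and 0.955 RPM (3.52) and Gm34788 4.40, 14.6 and 0.671 (3.32). The collagen reads mostly lacked the first-base U of piRNAs, with U at 15.9% and 11.3% in Col3a1 (WT and KO), 14.6% and 17.0% in Col1a2 and 16.7% and 20.5% in Col1a1. Of the 7 peritubular and mesenchymal marker miRNAs, 6 were measured, and their sum was 18937 RPM in the WT and 18842 in the KO.

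Genes of the piRNA pathway itself gave few piRNA-size reads. Of 29 genes of piRNA production and de novo DNA methylation, 3 reached the minimum and none was called. Dnmt3a, a de novo DNA methyltransferase, had 96.4 RPM in the WT, 54.5 in the KO and 49.2 in the Dnmt3L WT (log2 -0.82), Exd1, a piRNA factor, 17.8, 9.87 and 11.1 (-0.85), and Dnmt1, of maintenance methylation, 6.40, 5.78 and 1.18 (-0.15). Piwil2, the gene of MILI, had 220 (WT) and 110 (KO) reads, below the minimum. Of 12 germ cell genes 3 were measured and none was called. They were the stem cell gene Zbtb16 at 18.8 RPM in the WT and 5.67 in the KO (log2 -1.73), Sall4 at 9.42 and 4.43 (-1.09) and Dazl at 5.78 and 8.14 (0.50). The meiotic genes Stra8, Sycp1 and Sycp3 were not tested, with 23, 16 and 11 reads in the WT and 47.7, 29 and 15 in the KO.

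Antisense reads were fewer than sense reads, most were of 1 gene, and the excess in the KO was in those of several genes. In all they had 4777 RPM in the WT, 6006 in the KO and 2964 in the Dnmt3L WT, a ratio of KO to WT of 1.26 (95% interval 1.25 to 1.26). Those of 1 gene were level, at 3996 and 4064 RPM, and those of 2 genes or more had 781 and 1942 RPM, a ratio of 2.49. Of 97 transcripts with at least 500 antisense reads, 1 was called higher, 1.03%, and none lower, 0.0%, at a limit of 4.78 on the log2 scale that rests on 59 transcripts. Past 2-fold, 30 were higher (30.9%) and 7 lower (7.22%), and the median log2 ratio was 0.01. Between the wild-type pools 44.1% and 1.69% passed 2-fold. Gm49238 passed the limit, with 1.33 RPM in the WT, 37.9 in the KO and 0.301 in the Dnmt3L WT, 28.6-fold. Close behind were Gm48916 with 8.93, 243 and 2.58 RPM (27.2-fold), the long intergenic RNA Gm26905 with 9.11, 243 and 2.93 RPM (26.7-fold), Gm42863 at 21.7-fold and 4930470H14Rik at 18.9-fold.

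Transcripts with the most antisense reads were led by CT010467.1, annotated as ribosomal RNA opposite Gm42418, with 399 RPM in the WT and 395 in the KO. These reads mostly lacked a first-base U, with U at 30.3% (WT) and 26.2% (KO). Mfsd4a, of a membrane transporter, had 365 RPM in the WT, 251 in the KO and 238 in the Dnmt3L WT, and all of its reads were its own. Gm47652 had 152, 398 and 88.7 RPM, 2.61-fold. The lowest ratios were 0.185 in Efcab12 (23.9 and 4.41 RPM), 0.252 in Echdc2 (11.2 and 2.82), 0.408 in Tssk1, 0.429 in H2-T24 and 0.462 in Gm26809. Echdc2 (chromosome 4, 108165437 to 108179308) is the neighbour of Zyg11a (108181738 to 108218048), and its antisense reads lie on the strand of Zyg11a, whose sense reads were called lower.

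Opposite reads overlapped by 10 nt more often than by any other length from 1 to 20 nt in both libraries. Weighted by reads, the share of 10 nt among these overlaps was 31.0% in the WT, 40.6% in the KO and 28.6% in the Dnmt3L WT, where an even spread would give 5%. Overlaps of 12 nt came next, with 22.7% in the WT, 8.23% in the KO and 20.8% in the Dnmt3L WT. These shares are of the same total, so those of 10 and 12 nt are not independent. Counted once per pair of distinct sequences, the order at 10 nt turned, with 9.81% in the WT, 8.82% in the KO and 10.1% in the Dnmt3L WT. Without repeat-like reads the shares by reads were 32.1% and 39.6%, and the Dnmt3L WT was above both at 43.1%. The KO thus lay between the wild-type pools, but Noct alone held 50.6% of these 10 nt pairs in the Dnmt3L WT. The top genes of the WT and KO, Gm47652 and Gm26905, held 13.8% and 7.73%. The share of 12 nt was then 5.08% in the WT and 3.05% in the KO. In the transcripts called higher they were 31.5% for the WT and 42.0% for the KO, with the Dnmt3L WT between them at 36.2%, and in all other genes 30.7% and 38.9%, with the Dnmt3L WT at 25.6%. Over all genes, Olfr822 held 10.6% of the 10 nt pairs of the WT, Gm26905 held the most in the KO with 3.29%, and Noct in the Dnmt3L WT with 16.6%.

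**Figure D4:**
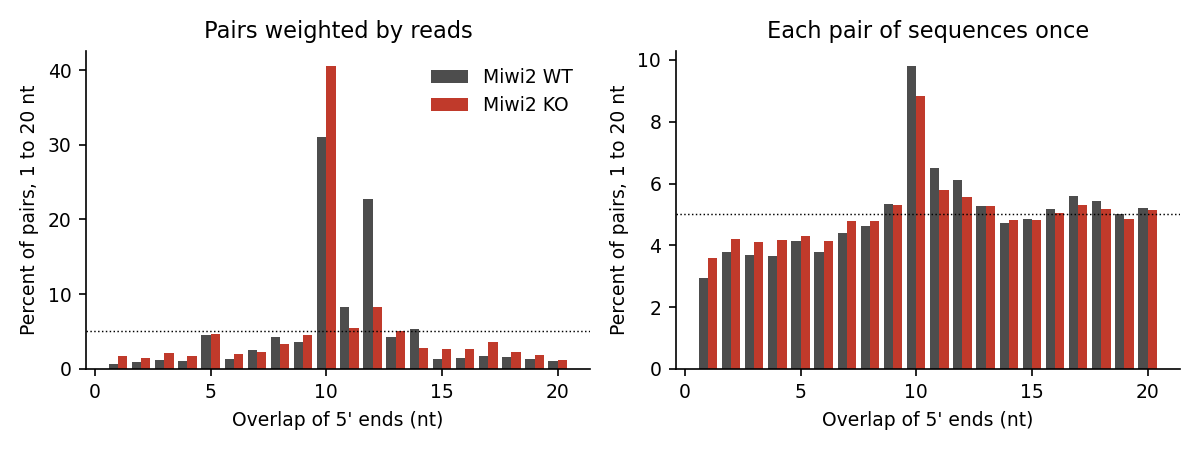
Share of each overlap of 1 to 20 nt between 5′ ends of piRNA-size reads on opposite strands of transcripts, weighted by reads (left) and with each pair of sequences counted once (right), in the Miwi2 WT and KO. The dotted line is the even share of 5%. The peak at 10 nt is higher in the KO on the left, at 40.6% against 31.0%, and lower on the right, at 8.82% against 9.81%. On the left, 12 nt comes next and is lower in the KO, at 8.23% against 22.7%.

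For miRNAs, which cut across the cell types of the testis, few genes differed by more than the wild-type pools did. Of 2202 annotated miRNA genes, 322 had at least 1000 reads over both libraries. At a limit of 2.29 on the log2 scale, or 4.90-fold, none was called higher (0.0%) and 3 were called lower (0.932%). Past 2-fold 13 were higher (4.04%) and 5 lower (1.55%), against 15.3% and 10.9% between the wild-type pools. The median log2 ratio was -0.11, and 0.01 under TMM. Mir449a (chromosome 13, 113037534 to 113037624) had 59.9 RPM in the WT, 3.47 in the KO and 3.15 in the Dnmt3L WT, a ratio of 0.0578 (95% interval 0.0481 to 0.0690). Mir449c, from the same cluster and with the same seed, had 35.0, 2.69 and 0.841 RPM, a ratio of 0.0768, and 77.6% of its reads had 26 nt. Only 5.43% of them had 20 to 24 nt, so most reads behind this call were longer than the miR-449c-5p printed above. Mir375 (chromosome 1, 74900658 to 74900721), known from endocrine and epithelial cells, had 108, 21.3 and 19.0 RPM, a ratio of 0.197. In all 3 the Miwi2 WT stood above both other libraries.

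Mir449a and Mir449c belong to the miRNAs of meiotic germ cells and of ciliated epithelium. Of the 5 listed meiotic miRNAs 3 were measured, and all were lower in the KO, the remaining one being Mir34c at 172 RPM in the WT, 106 in the KO and 58.2 in the Dnmt3L WT. Mir34b had 375 and 305 reads, and Mir449b 3 and 0. Markers of epithelium were mixed. Of 8 listed, 6 were measured and their sum was 416 RPM in the WT, 374 in the KO and 320.2 in the Dnmt3L WT. Besides Mir375, Mir205 had 46.4, 28.3 and 6.83 RPM, while Mir429, Mir200a and Mir203 were higher in the KO at log2 ratios of 0.75, 0.45 and 0.42. Mir141 had 632 and 206 reads and Mir200c 71 and 24, both below the minimum. The part of these cells in the low ratios of Mir449a, Mir449c and Mir375 was not tested.

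The X-linked Mir506 family, known from germ cells of the testis after birth, was higher in the KO as a group. Of 22 listed genes 18 were measured, and all 18 had ratios above 1, under TMM and scaling by miRNA reads too, with a median log2 ratio of 0.85 and a range of 0.11 to 1.56, against -0.11 over all measured miRNA genes. None passed the limit and 8 passed 2-fold. Their sum was 17971 RPM in the WT, 34497 in the KO and 34912 in the Dnmt3L WT, so that here the Miwi2 WT was the low one. Mir463 had 116 RPM in the WT, 341 in the KO and 253 in the Dnmt3L WT (2.94-fold), Mir201 17.1, 45.2 and 31.8 (2.65-fold) and Mir878 142, 355 and 121 (2.50-fold). Mir470 had 7412, 13765 and 12842 RPM, and Mir871 5635, 11956 and 17613. The copies of Mir465 share mature sequences and their reads were divided among them. On the X chromosome outside this family, 23 miRNA genes had a median of 0.16, and 281 autosomal genes one of -0.17.

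The imprinted cluster between Dlk1 and Dio3 went the other way. Of its 67 genes on chromosome 12, 31 were measured, of which 26 were below zero with a median log2 ratio of -0.50 and a range of -0.93 to 0.32. The number above zero was 5, and 7 under TMM and scaling by miRNA reads, and none passed the limit or 2-fold. Their sum was 36455 RPM in the WT, 23406 in the KO and 38120 in the Dnmt3L WT. Mir127 had 17920, 9881 and 22658 RPM, a ratio of 0.551, and Mir341 167, 87.4 and 34.1, a ratio of 0.524. Of the Sfmbt2 cluster, 4 of 119 genes were measured, with a median of 0.38, and Mir466f-2 had the highest ratio of all miRNA genes at 11.8 RPM in the WT and 42.5 in the KO (3.60-fold).

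**Figure D5:**
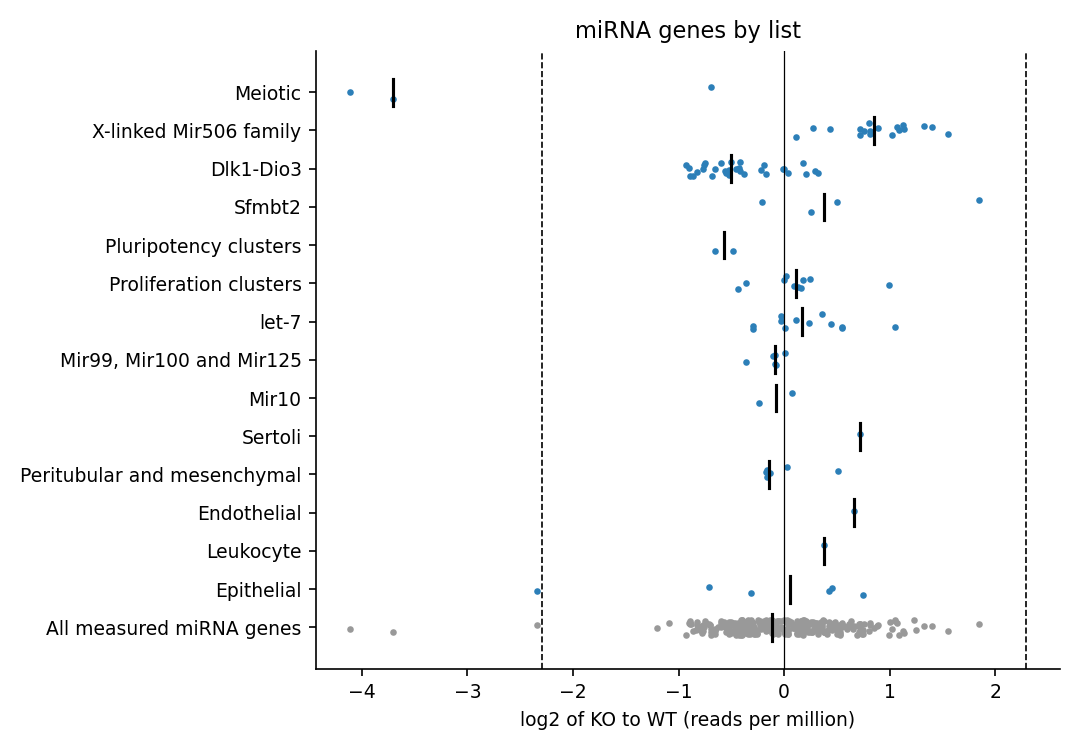
Log2 ratio of KO to WT in RPM for the measured miRNA genes of each list and for all 322, one point per gene from single libraries, with the median as a bar. The dashed lines are the limits of 2.29 on either side. The 18 genes of the X-linked Mir506 family all lie above zero, 26 of 31 of the Dlk1-Dio3 cluster lie below it, and the 2 points left of -3 are Mir449a and Mir449c.

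Markers of somatic cells were not all level. Mir202 of Sertoli cells had 187 RPM in the WT, 309 in the KO and 255 in the Dnmt3L WT (log2 0.72), and endothelial Mir126a 453, 717 and 582 (0.66). Leukocyte Mir142 had 55.3, 71.8 and 103 RPM (0.38), and Mir223 had 247 and 133 reads. The 6 measured peritubular and mesenchymal miRNAs had a median of -0.15. Erythroid miRNAs stayed below the minimum, with 536 and 417 reads of Mir451a and 214 and 371 of Mir144. Mir126b, Mir142b, Mir145b and Mir451b had 0 reads in both. The pluripotency clusters had 2 of 14 genes measured, with a median of -0.57, and Mir302a to Mir302d had 0 reads. The levels of Mir202 and Mir126a moved in the same direction as the Mir506 family, and their part in it was not tested.

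Other miRNA groups stayed close to the median of all. The let-7 family, of differentiated cells, had a median of 0.17 over 12 genes, and the clusters of Mir17 and Mir106b, linked to proliferation, one of 0.11 over 10 of 15. Mir99, Mir100 and Mir125 had a median of -0.09 over 6 genes and Mir10 one of -0.08 over 2. The former had 1 of 6 genes above zero, and 5 of 6 under TMM, where the Mir10 median turned to 0.05. Mir10b led all miRNA genes at 54295 RPM in the WT and 57326 in the KO, and at 266073 in the Dnmt3L WT. Mir22 had 28308 RPM in the WT and 23362 in the KO, Mir143 14169 and 14426, Mir92-1 13312 and 14166, and Mir30d 8753 and 10184. Mature miR-181a-5p, from Mir181a-1 and Mir181a-2, had 57847 RPM in the WT, 33710.3 in the KO and 31246 in the Dnmt3L WT, a ratio of 0.583. Mir423 had 8812 and 12738 RPM (1.45-fold), Mir204 315 and 738 (2.34-fold), Mir877 63.4 and 150.5 (2.37-fold) and Mir221 23.6 and 10.2 (0.434).

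Other small RNA of 18 to 35 nt was 17408 RPM in the WT and 18766 in the KO, with opposite directions by class. Fragments of mitochondrial tRNA had 311 RPM in the WT, 909 in the KO and 369 in the Dnmt3L WT, 2.92-fold, led by mt-Ts2, a serine tRNA, at 207, 739.7 and 238 RPM (3.57-fold). Ribosomal RNA fragments had 2947, 4366 and 4662 RPM (1.48-fold) and mitochondrial ribosomal RNA 272, 392 and 449.5 (1.44-fold). Miscellaneous RNA, with 7SK, Y and vault RNA and the like, had 4268 and 3199 RPM, a ratio of 0.750, in which Gm27896 had 968 and 535 RPM and Gm25574 998 and 889.6. Small nucleolar RNA, which guides the modification of ribosomal RNA, had 8693 and 8920 RPM (1.03-fold), with Snord104 at 746 and 567 RPM and Snord88a at 98.2 and 201. Small nuclear RNA was at 1.02-fold and the ribozymes Rpph1 and Rmrp at 1.11-fold and 0.910-fold. Of 174 genes with at least 1000 reads, none was called in either direction (0.0%) at a limit of 3.63 on the log2 scale, and 3 (1.72%) were higher and 1 (0.575%) lower by more than 2-fold. These 4 were mt-Ts2, Gm23991, Snord88a and, on the lower side, Gm22453.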

How the data were processed

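Per the labels' protocols, RNA of 18 to 35 nt from whole testis was made into Illumina TruSeq libraries. The deposited files give each read sequence and its raw count. The submitters' processing notes name the build mm9. Trimming and alignment are not given in the sources used.

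Counts were scaled to 1000000 reads of the library (Python 3.11.15, numpy 2.4.6, scipy 1.17.1). Reads of 18 to 35 nt were searched exactly and in both orientations in the longest transcripts of 55450 GENCODE vM21 genes of GRCm38, from which the printed coordinates come. A read took the first class that applied: miRNA gene (up to 32 nt), other small RNA, repeat-like (10 or more genes that are not pseudogenes), sense, antisense, unmatched. Reads of several genes were divided evenly. Nuclear tRNAs are not in this gene set, and without a repeat annotation transposon segments, planned where the references allow, were not analysed. Mature arms were counted by a core of 16 bases, and 164 of 295 named or listed miRNA genes had a mature sequence in RefSeq. Minimums were 500 reads for transcripts and 1000 for miRNA and other small RNA genes. TMM factors came from edgeR 4.0.16 (R 4.3.3), with no model fit, and the matching and calls were tested on simulated data.

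Named were the 10 sense transcripts and miRNA genes and 6 antisense transcripts with the most reads, the 8 sense transcripts, 6 miRNA genes and 5 antisense transcripts with the highest and with the lowest ratios, list members where a list is described, and in other small RNA the 2 most abundant of a class and the 3 highest and lowest. The reads printed are among those with the most reads in transcripts or in a named transcript and those with extreme ratios. Unmatched reads that do not begin as a miRNA, other than a variant of a Zfp317 read, are not printed, since without a genome sequence their origin in the mouse was not tested. A result that this rule would name is not reported here. Members and lists were chosen with earlier results of these data known. Depth was 45010155 and 37218684 reads, and precision between animals cannot be given with 1 pool per group.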

Additional observations from a re-analysis of the deposited data

How the results depend on the processing

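No paired analysis was possible because each group is 1 library, and for the same reason none could be left out. Alternatives took their own limit from the wild-type pools, and the cause of a change was not tested. The ratio of KO to WT of the piRNA-size share, 0.992, was 0.950 over distinct sequences, 0.970 at 25 to 30 nt and 1.005 as a share of all reads. The difference in first-base U, 0.07 percentage points, was -2.84 over distinct sequences, -0.32 at 25 to 30 nt and -0.33 without miRNA and other small RNA, and that in A at position 10, 1.89, was 1.23, 2.86 and 3.05. Class log2 ratios with scaling by miRNA reads, at 25 to 30 nt and over distinct sequences were -0.012, -0.59 and 0.24 for miRNA genes (-0.05 as reported), 0.13, -0.10 and 0.32 for other small RNA (0.09), 1.15, 1.16 and 0.53 for repeat-like reads (1.12), -0.0076, -0.079 and -0.084 for sense reads (-0.04), 0.37, 0.32 and 0.10 for antisense reads (0.33) and -0.063, -0.14 and -0.077 for unmatched reads (-0.10). Other small RNA of 18 to 35 nt, at 0.11, was at 0.15 with scaling by miRNA reads and 0.34 over distinct sequences. With the repeat-like bound at 5 or 30 genes, chosen after seeing the data, repeat-like reads were at 1.33 and 0.46 and sense reads at -0.28 and 0.16.

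Of 107 sense transcripts called higher and 8 lower, TMM gave 169 and 48, including all of them, so that 77.9% of calls were higher against 93.0%. Distinct sequences, with 319 transcripts tested, gave 15 and 1, reads of 1 gene only 18 and 20 (47.4% higher), a minimum of 2000 reads 67 higher and a limit of 2-fold 172 and 407 (29.7% higher). Scaling by miRNA reads left 1 lower, and 25 to 30 nt gave 16 lower. For antisense transcripts, 1 higher and 0 lower became 0 higher with scaling by miRNA reads, 12 under TMM, 4 at 25 to 30 nt, 3 and 7 with minimums of 200 and 2000, 11 with libraries thinned to equal depth, and 30 and 7 with a limit of 2-fold. For miRNA genes, 0 higher and 3 lower became 13 and 5 with a limit of 2-fold. With scaling by miRNA reads the call of Mir375 was lost, leaving 0 in the epithelial list. The ping-pong share by reads was 31.0% and 40.6% in the WT and KO, 38.5% in the KO at 25 to 30 nt, and 9.81% and 8.82% over distinct sequences. Of the values of named genes under alternatives, 188 of 196 sense, 103 of 107 antisense and 109 of 109 miRNA values kept their sign. Exact matching drops reads with a sequence difference, and adding reads with 1 mismatch, chosen after seeing the data, took the ratio of Zfp317 from 0.157 to 0.719.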
